A study of Mus musculus with 2 samples.

Results

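The genes described here are 10 receptors of T cells, the CD28 family with the receptors that inhibit T cells or compete with them for ligands: Ctla4, Icos, Cd28, Pdcd1, Lag3, Tigit, Havcr2, Btla, Cd160 and Cd226. They were chosen by name, and the deposited table held 1 row for each of the 10 among its 55246 loci. All 10 passed a filter of at least 10 reads over both libraries, as did 17363 loci in all. The samples were Treg cells (regulatory CD4 T cells, whose identity rests on the factor Foxp3) taken from the lamina propria of the colon of female mice. One group was WT and the other, labelled Exon2KO, carried a Foxp3 gene without exon 2 (the Foxp3∆2 of the series title). The labels name no treatment and no transgene, and they give neither the ages of the mice, nor how the cells were sorted, nor whether mice were pooled. Each group had 1 library, of 16281133 reads for WT and 15412425 for Exon2KO, so no difference below has a replicate check. Intervals are 95% Clopper-Pearson intervals of counting error only and cover no spread between samples. They treat each read as independent. The reads carry no molecular identifiers that would make each an independent molecule, so the intervals may be too narrow.

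T cells need a second signal beside the antigen receptor, and Cd28 gives it when it binds CD80 or CD86 on another cell. Ctla4 binds the same ligands more tightly, and Treg cells carry much of it and strip those ligands from antigen-presenting cells. Icos is a further costimulator of the family, whereas Pdcd1 (PD-1) and Btla recruit phosphatases that dampen signalling. Tigit and Cd226 oppose each other over a shared ligand, CD155, encoded by Pvr. Lag3, which binds MHC class II, and Havcr2 (TIM-3) are inhibitory receptors of activated T cells, and Cd160 shares with Btla the ligand HVEM, encoded by Tnfrsf14.

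The receptors did not move as a group. Pdcd1, Cd160 and Btla were lower in the Exon2KO library by at least 2-fold, the threshold used here in place of a test, and none of the 10 was higher by that much. Over all tested genes, 8.14% were at least 2-fold lower and 9.38% at least 2-fold higher. Of the 10 log2 ratios (of Exon2KO over WT, computed after adding a prior count of 2), 6 lay above 0 and 4 below, with a median of 0.15 and a range of -3.45 to 0.77. The median over all tested genes was 0.0035. The counting interval left out 0 for 9 receptors, all but Cd226, and for 47.3% of all tested genes. In bulk RNA, fewer cells of a type and less RNA per cell cannot be told apart, which holds for every value below. The plot of levels by library shows these 10 pairs of values.

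**Figure D1:**
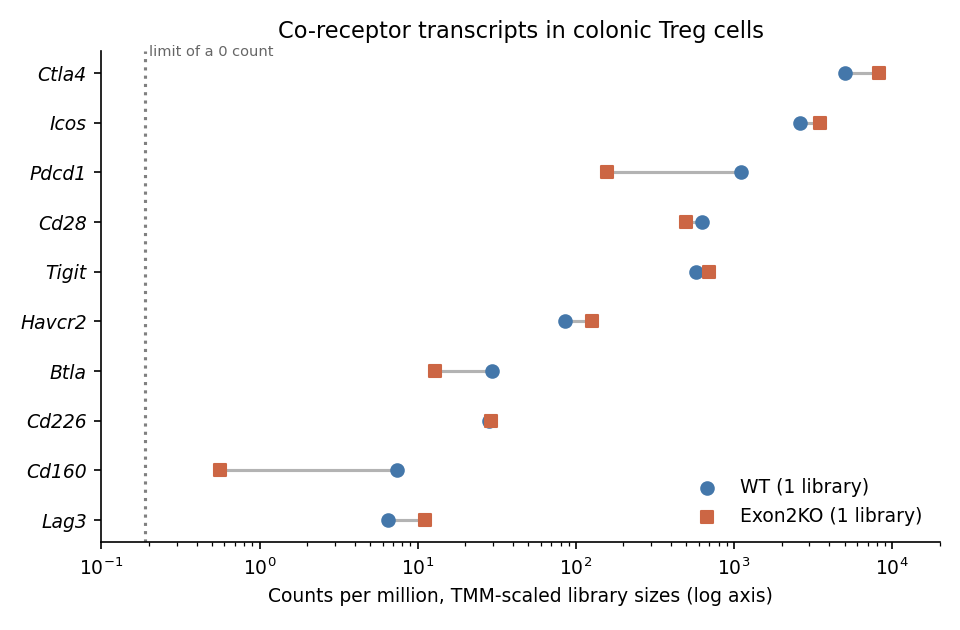
Level of each receptor transcript in CPM (counts per 1000000 reads of the scaled library, log axis), with 1 point for the WT library and 1 square for the Exon2KO library. The dotted line is the level of 3 reads, the limit that a count of 0 allows. Pdcd1 and Cd160 show the widest gaps, with the Exon2KO value on the left, while Ctla4 and Icos are the 2 highest in both libraries.

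Cd28, Ctla4 and Icos lie side by side on chromosome 1 on the plus strand. Coordinates are those of the deposited table, on mm10 (GRCm38). Cd28 (ENSMUSG00000026012) spans 60716800 to 60773359, Ctla4 (ENSMUSG00000026011) 60887000 to 60915832 and Icos (ENSMUSG00000026009) 60977927 to 61000320. Gaps of 113.6 kb and 62.1 kb separate them, and the 3 genes together take up 283.5 kb.

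Ctla4 had 79358 reads in WT against 132229 in Exon2KO, or 5056 and 8270.4 CPM (counts per 1000000 reads of the scaled library). It was 1.64-fold higher in the Exon2KO library (95% interval 1.62 to 1.65). This 1 gene took 0.487% of all WT reads and 0.858% of all Exon2KO reads. Icos went from 41004 to 56225 reads, 2613 and 3517 CPM, a 1.35-fold higher level (1.33 to 1.36). Cd28 differed in the other direction, with 9899 reads in WT against 8004 in Exon2KO, 631 and 501 CPM, a 1.26-fold lower level (1.22 to 1.30). The 3 neighbours thus did not share a direction, and each of them stayed short of 2-fold.

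A ratio of 2 genes within a library does not depend on how the libraries are scaled. Per gene length, in the FPKM values of the authors, Ctla4 stood 21.1 times above Cd28 in WT and 43.4 times in Exon2KO. In reads, the Ctla4 to Cd28 ratio was 2.06 times higher in Exon2KO (95% interval of counting error 2.00 to 2.13). Icos stood 7.39 times above Cd28 in WT and 12.5 times in Exon2KO, and that ratio was 1.70 times higher in reads (1.64 to 1.75). The balance of the costimulator Cd28 against both of its relatives therefore differed between the libraries more than Cd28 itself did.

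Pdcd1 (ENSMUSG00000026285, chromosome 1, 94038305 to 94052553, minus strand) showed the sharpest difference among the receptors with many reads. It had 17272 reads in WT against 2520 in Exon2KO, or 1100.5 and 158 CPM. The level in Exon2KO was 6.98-fold lower (6.70 to 7.28), a log2 ratio of -2.80. Counted from the lowest, it ranked 186 among the 17363 log2 ratios, at percentile 1.07. In the FPKM values Pdcd1 stood just below Tigit in WT, at 567, and next to Cd28 in Exon2KO, at 82.1 against 82.2.

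Btla (ENSMUSG00000052013, chromosome 16, 45224315 to 45257670, plus strand), the other family member that recruits phosphatases, had 464 reads in WT against 206 in Exon2KO, or 29.6 and 12.9 CPM. It was 2.28-fold lower in the Exon2KO library, and its interval, 1.94 to 2.72, reaches under the 2-fold threshold. Cd160 (ENSMUSG00000038304, chromosome 3, 96798763 to 96829351, minus strand), which binds the same ligand, fell from 116 to 9 reads, or 7.39 to 0.563 CPM. The fitted ratio was 10.9-fold lower (6.68 to 29.4), with the lower end of the interval still well past the threshold. Cd160 had the lowest log2 ratio of the 10, -3.45, at percentile 0.492 of all tested genes, but it was also the receptor with the fewest reads in Exon2KO. Its shared ligand gene Tnfrsf14 had 54 and 48 reads, a log2 ratio of -0.19 (-0.79 to 0.39), so this depth showed no difference.

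**Figure D2:**
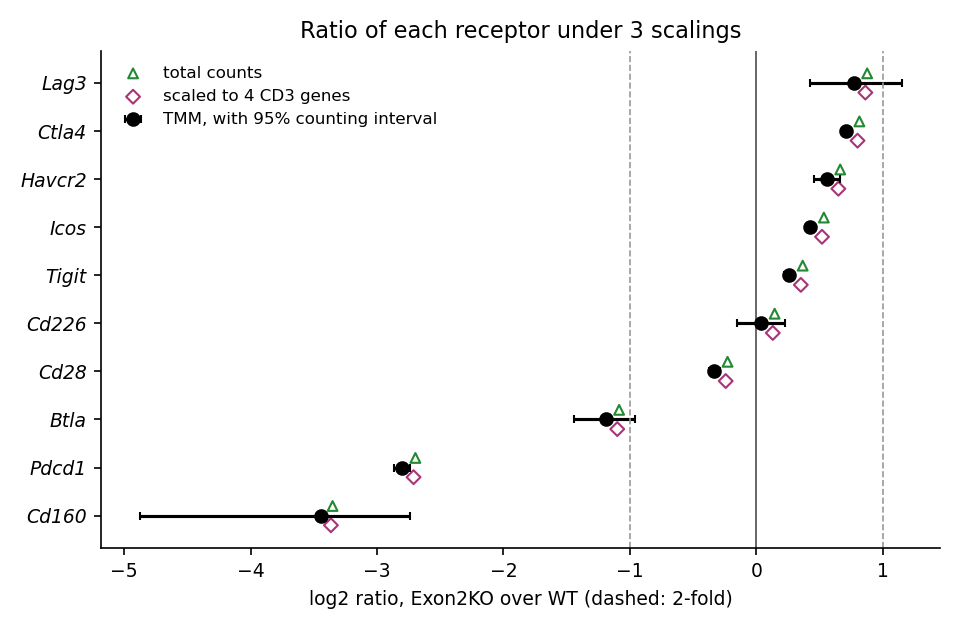
Log2 ratio (Exon2KO over WT) of each receptor: black points with 95% counting intervals for TMM scaling, open triangles for total counts and open diamonds for scaling by 4 CD3 chain genes. Cd160, Pdcd1 and Btla lie past the dashed 2-fold line on the left under all 3 scalings, and no receptor passes it on the right, although the interval of Lag3 crosses it.

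The authors' deposited table gives its own comparison of the 2 libraries. In the authors' deposited table Pdcd1 has a log2 fold change of -2.80 with an adjusted p-value of 3.6e-08, and Cd160 has -3.70 with 1.94e-07. Btla, at -1.20, has an adjusted p-value of 0.0962 in the authors' deposited table, and the adjusted p-values of the other 7 there lie between 0.51 and 1. That makes 2 of the 10 receptors with an adjusted p-value below 0.05 in the authors' deposited table, against 4.58% of its 22447 compared genes. The deposited p-values rest on 1 library per genotype, so the spread behind them was not measured in these samples. With an assumed biological coefficient of variation of 0.4 between samples, edgeR's exact test gave Cd160 an adjusted p of 0.0372 and Pdcd1 0.108, which ends the call of Pdcd1.

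The start regions of the receptors that moved apart are shown so that their sequence can be set beside the ratios. They come from RefSeq (build GRCm38.p6), whose table held 7 start windows for 6 of the 10 receptors (Ctla4, Pdcd1, Btla, Cd160, Havcr2 and Tigit). Each line gives the bases upstream of a transcription start, 5′ to 3′ on the strand of the gene. Capitals mark GGAAA on either strand, the core of NFAT sites. Ctla4 is chr1:60908775-60909024 (plus strand), Pdcd1 chr1:94052554-94052803 (minus), Btla chr16:45224087-45224314 (plus) and Cd160 chr3:96814522-96814771 (minus). The Ctla4 start in RefSeq lies inside the longer gene span of the deposited table. The Btla line stops where an annotated exon of the gene begins. The Cd160 window belongs to its downstream start, because the window of its upstream start lies on an exon of Pdzk1.
Ctla4: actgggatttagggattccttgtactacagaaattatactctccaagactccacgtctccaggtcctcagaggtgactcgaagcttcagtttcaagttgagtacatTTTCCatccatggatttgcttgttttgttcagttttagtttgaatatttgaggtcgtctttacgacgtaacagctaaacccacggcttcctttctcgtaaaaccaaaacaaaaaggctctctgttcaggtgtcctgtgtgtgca
Pdcd1: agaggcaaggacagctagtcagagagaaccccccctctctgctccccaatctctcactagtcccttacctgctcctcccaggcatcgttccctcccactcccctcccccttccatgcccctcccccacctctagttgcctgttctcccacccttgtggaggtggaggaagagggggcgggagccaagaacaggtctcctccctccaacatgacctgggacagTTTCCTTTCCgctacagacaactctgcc
Btla: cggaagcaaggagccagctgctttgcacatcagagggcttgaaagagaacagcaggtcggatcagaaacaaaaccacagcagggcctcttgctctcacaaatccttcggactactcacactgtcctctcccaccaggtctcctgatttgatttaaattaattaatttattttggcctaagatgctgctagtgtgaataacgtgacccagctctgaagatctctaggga
Cd160: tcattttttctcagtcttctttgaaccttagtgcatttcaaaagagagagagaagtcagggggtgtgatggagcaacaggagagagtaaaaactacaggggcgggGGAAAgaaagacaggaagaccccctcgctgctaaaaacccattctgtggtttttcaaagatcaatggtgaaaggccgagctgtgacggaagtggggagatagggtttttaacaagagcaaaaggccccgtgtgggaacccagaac

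No forkhead sequence, searched as TGTTTAC or TGTTTGC on either strand, was found in the 250 upstream bases of any of the 7 windows. Of all 32851 RefSeq start windows of that length, with chromosome 18 kept, 3.17% hold TGTTTAC and 4.30% hold TGTTTGC. The NFAT core GGAAA occurred in 4 of the 7 windows, with 1 match for Ctla4, 2 for Pdcd1, 2 for Tigit and 1 for the downstream start of Cd160, and it is in 55.6% of all windows. The AP-1 sequence TGANTCA occurred once, in the Havcr2 window, against 6.75% of all windows. The 4 motifs were searched separately and none overlapped another in the printed lines. A match is a description of letters and no evidence of binding.

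Tigit (ENSMUSG00000071552, chromosome 16, 43648867 to 43664146, minus strand) had 9044 reads in WT against 11042 in Exon2KO, or 576 and 691 CPM, a 1.20-fold higher level (1.17 to 1.23). Its activating counterpart Cd226 (ENSMUSG00000034028, chromosome 18, 89197431 to 89270201, plus strand) had 444 and 465 reads, or 28.3 and 29.1 CPM. The log2 ratio of Cd226 was 0.04 (-0.15 to 0.23), and no difference was detectable at this depth. Per gene length, Tigit stood 52.2 times above Cd226 in WT and 60.9 times in Exon2KO. In reads that ratio was 1.17 times higher in Exon2KO, with an interval of 1.02 to 1.33 that comes close to no difference. The inhibitory side of this pair therefore outweighed the activating side in transcript level in both libraries. The gene of their ligand, Pvr, had 363 and 352 reads, a log2 ratio of -0.07 (-0.29 to 0.14).

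Havcr2 (ENSMUSG00000020399, chromosome 11, 46454935 to 46481255, plus strand) had 1346 reads in WT against 2020 in Exon2KO, or 85.8 and 126 CPM, a 1.47-fold higher level (1.37 to 1.58). Lag3 (ENSMUSG00000030124, chromosome 6, 124904361 to 124911705, minus strand) had 102 and 179 reads, or 6.50 and 11.2 CPM. It was 1.71-fold higher in Exon2KO (1.34 to 2.22), the highest ratio of the 10, and its interval crosses 2-fold. Both inhibitory receptors of activated cells thus stood on the same side as Ctla4, opposite to Pdcd1. In WT the FPKM of Lag3, 3.07, was close to that of Cd160, 2.78, while in Exon2KO they were 5.33 and 0.214.

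**Figure D3:**
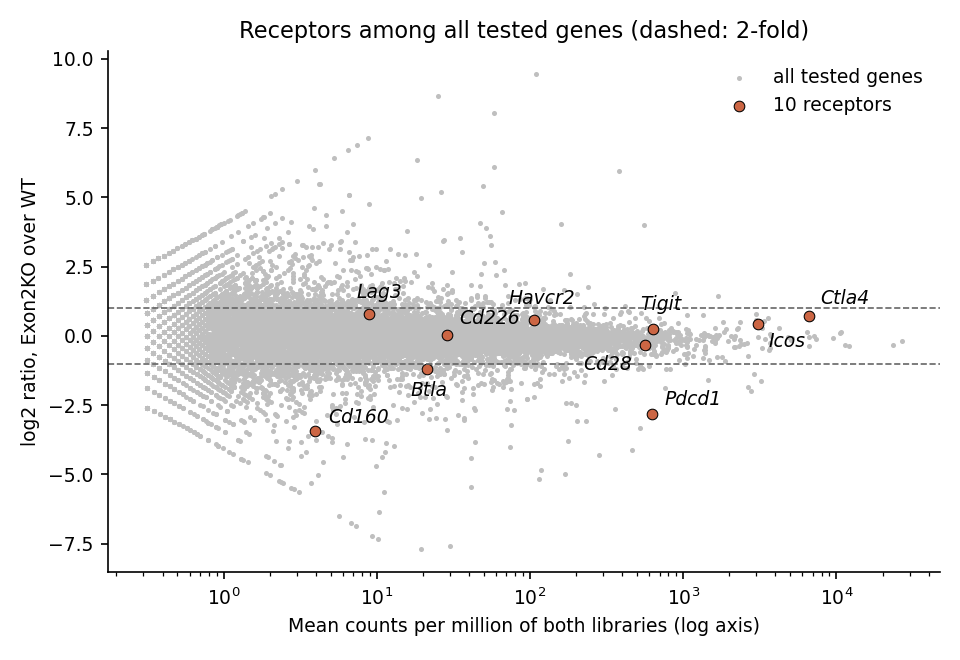
Log2 ratio (Exon2KO over WT) against the mean CPM of both libraries (log axis) for all 17363 tested genes, in grey, with the 10 receptors in colour. Pdcd1 lies far below the band of genes of like level, while Ctla4 and Icos lie at the right end of the cloud, above 0 and under the dashed 2-fold line.

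The make-up of the receptor reads is another measure that scaling does not touch. The 10 genes together had 159049 reads in WT, 0.977% of the library (95% Wilson interval 0.972 to 0.982), and 212899 in Exon2KO, 1.38% (1.376 to 1.387). Ctla4 held 49.9% of these reads in WT and 62.1% in Exon2KO, and Icos held 25.8% and 26.4%. Pdcd1 went from 10.9% to 1.18% and Cd28 from 6.22% to 3.76%. Tigit, at 5.69% and 5.19%, kept nearly the same share, and the 5 remaining receptors each stayed below 1% in both libraries. On the CPM scale, which does depend on scaling, the 10 summed to 10134 in WT and 13316 in Exon2KO. Within that sum Ctla4 was higher by 3214 CPM and Icos by 904 CPM, while Pdcd1 dropped by 943 CPM.

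**Figure D4:**
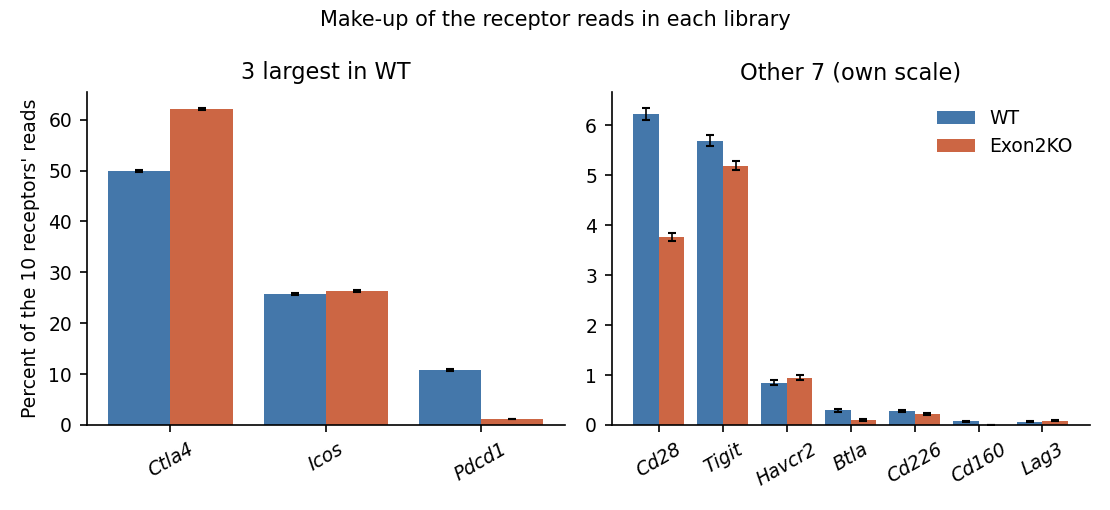
Share of the summed reads of the 10 receptors that each receptor held, in percent, in WT (left bar of each pair) and Exon2KO (right bar), with 95% Wilson intervals. The 3 largest in WT are on the left panel and the other 7 on the right panel, which has its own scale. The Pdcd1 bar goes from 10.9% to 1.18% and the Ctla4 bar from 49.9% to 62.1%.

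Scaled to the gene length, the order of the 10 changed little. In the FPKM values the 3 highest were Ctla4 (2160 in WT and 3567 in Exon2KO), Icos (758 and 1030.3) and Tigit (624 and 755), in that order in both libraries. Pdcd1 and Cd28 followed and exchanged places. Next came Havcr2 (31.4 and 46.7) and then Cd226 (11.9 and 12.4) in both. Btla (8.66 and 3.81) and Lag3 exchanged places behind them, and Cd160 was the last in both.

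Among 16 ligand genes, many of which antigen-presenting and tissue cells express, 15 had enough reads, 3 of them were at least 2-fold higher and 3 at least 2-fold lower, and the median log2 ratio was -0.33. Cd80, a ligand of both Cd28 and Ctla4, had 150 reads in WT against 57 in Exon2KO, a log2 ratio of -1.39 (-1.89 to -0.97). The other such ligand, Cd86, had 932 and 1465 reads, a log2 ratio of 0.62 (0.51 to 0.75). The 2 ligands of Pdcd1 were both lower: Pdcd1lg2 (PD-L2) had 1334 and 582 reads, at -1.22 (-1.37 to -1.08), and Cd274 (PD-L1) had 1753 and 1028 reads, at -0.80 (-0.91 to -0.68), short of 2-fold. Ceacam1, a ligand of TIM-3 that epithelium also makes, went from 84 to 1023 reads, at 3.55 (3.26 to 3.92). Lgals3, which encodes galectin-3, was at 1.29 (1.16 to 1.41), and the most-read of these genes, the galectin Lgals9, at -0.37 (-0.46 to -0.29). The ligands thus passed 2-fold in both directions, whereas none of the 10 receptors was at least 2-fold higher.

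Of 20 further inhibitory and paired receptors of T cells, 19 were in the table and 16 had enough reads. In this list 6 were at least 2-fold lower and 2 at least 2-fold higher, with a median log2 ratio of -0.68. The lower count was 4 with total counts and with scaling by CD3 genes, and the higher count was 1 with at least 50 reads over both libraries. Cd96, the other receptor of the Tigit and Cd226 group, had 2647 reads in WT against 839 in Exon2KO, at -1.68 (-1.80 to -1.57), unlike Tigit and Cd226. Klrg1, an inhibitory lectin receptor, went from 6483 to 778 reads, at -3.08 (-3.19 to -2.98). Cd200r1, an inhibitory receptor of the immunoglobulin family, went from 1042 to 127 reads, at -3.04 (-3.34 to -2.80). Cd2, an adhesion receptor and the most-read of the list, was at -0.77 (-0.79 to -0.74). In these libraries the low ratio of Pdcd1 stood beside low ratios of Klrg1 and Cd200r1, while Ctla4, Tigit, Havcr2 and Lag3 stood apart from them.

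Molecules that carry the receptors' signals form the next list. All 20 adaptors, kinases and phosphatases had enough reads, and 1 was at least 2-fold lower and 0 at least 2-fold higher. Their median log2 ratio was -0.36, with 18 of the 20 below 0. Of all 17363 tested genes, 8622 lay below 0. The list median was -0.26 with total counts and -0.27 with scaling by CD3 genes. The single one past the threshold was Sh2d1a, which encodes the adaptor SAP, with 1611 and 714 reads, at -1.20 (-1.33 to -1.07). Lck, the kinase that acts at the antigen receptor and at Cd28, was at -0.38 (-0.42 to -0.34). The phosphatase genes recruited by Pdcd1 and Btla lay on both sides of 0, Ptpn6 at -0.59 (-0.78 to -0.40) and Ptpn11 at 0.17 (0.02 to 0.32).

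Of 13 genes for trafficking and shedding of the receptors, 1 was at least 2-fold lower and 0 higher, with a median log2 ratio of -0.05, a sign that flips with total counts (0.0545) and with scaling by CD3 genes (0.0399). The exception was Trat1, which encodes the adaptor TRIM that helps to bring Ctla4 to the cell surface. It had 2203 reads in WT against 136 in Exon2KO, a log2 ratio of -4.02 (-4.31 to -3.79), in the same library in which Ctla4 itself was 1.64-fold higher. Lrba, which protects Ctla4 from degradation, had 259 and 358 reads, at 0.44 (0.21 to 0.68). Adam17 and Adam10, the proteases that shed Lag3, were at 0.42 (0.26 to 0.58) and -0.05 (-0.24 to 0.14). The most-read of the list, the vesicle GTPase Arf1, was at -0.04.

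Of 20 transcription factors and cytokines tied to the expression of co-inhibitory receptors, 19 had enough reads. Of these, 3 were at least 2-fold higher and 2 at least 2-fold lower. Their median log2 ratio was 0.06, with 10 above 0 and 9 below. Prdm1 and Maf are known to act together on a shared set of inhibitory receptor genes. Maf had 2336 and 4853 reads, at 1.03 (0.96 to 1.10), and Prdm1 had 628 and 1052 reads, at 0.72 (0.57 to 0.86). Il10, an immunosuppressive cytokine gene, was at 1.46 (1.43 to 1.48). Tox, a factor tied to sustained PD-1 expression, went from 3005 to 1166 reads, at -1.39 (-1.49 to -1.29). Nr4a2, an early target of antigen receptor signals, went from 2130 to 229 reads, at -3.23 (-3.45 to -3.05). Id2, the most-read of the list, was at 0.29 (0.27 to 0.31). The plot of receptors and related genes sets these lists beside the 10 receptors.

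**Figure D5:**
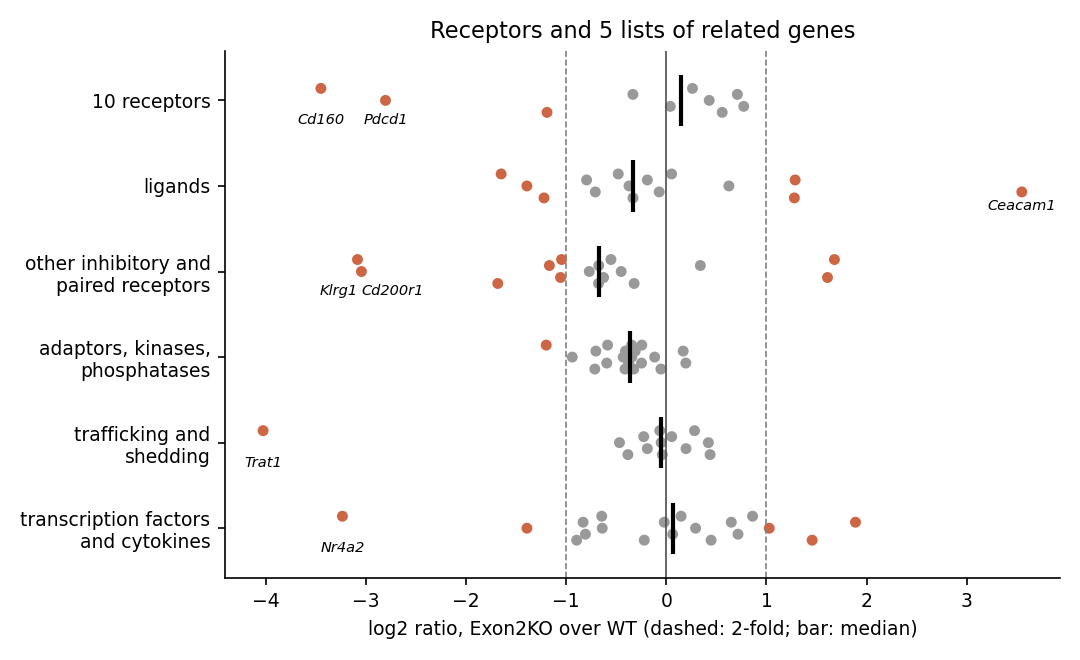
Log2 ratio (Exon2KO over WT) of each tested gene of the 10 receptors and of 5 lists of related genes, 1 point per gene, with a bar at the median of each row. Coloured points lie past the dashed 2-fold lines. The receptors and their ligands spread to both sides of 0, the receptors past 2-fold only on the lower side. The adaptors, kinases and phosphatases cluster at or just below 0, with a median of -0.36.

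Genes of the labelled cell type were present in both libraries. The T cell markers summed to 4606 CPM in WT and 4048 in Exon2KO, with 0 of the 8 past 2-fold. Their most-read members, Cd3g and Trbc2, were at -0.16 and -0.36. Of 8 Treg markers, 6 were at least 2-fold lower and 1 higher, and their sum was 7840 CPM in WT and 3892 in Exon2KO. The most-read of them, the receptor genes Tnfrsf4 and Tnfrsf18, were at -1.37 and -1.59. Foxp3 itself, the gene that carries the deletion, had 6991 and 20946 reads, a log2 ratio of 1.56 (1.52 to 1.60), and a count over a whole gene does not test whether 1 exon is missing. The part of these shifts in the receptor ratios was not tested.

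Several of the 10 receptors are also expressed outside Treg cells, so the markers of such cells are given beside them. For Cd160 and Cd226, known from CD8 T cells, NK cells and intraepithelial lymphocytes, the 11 cytotoxic cell markers summed to 3200.1 CPM in WT and 4058 in Exon2KO, of which 10 had enough reads and 1 was at least 2-fold higher and 3 at least 2-fold lower. Most of that sum was Gzmb (43499 and 63649 reads), which activated Treg cells also express, and Gzma (5153 and 164 reads). The defining marker Cd8a had 23 and 6 reads, Ncr1 had 0 and 10, and Eomes had 3 and 0. Cd8b1, the other CD8 chain gene of the list, had 138 and 91 reads, at -0.62 (-1.03 to -0.24). Of the 10 tested markers, 4 lay above 0 and 6 below. The part of such cells in the Cd160 ratio was not tested.

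For Btla, which B cells express strongly, the 7 B cell markers given here summed to 130.1 CPM in WT and 106 in Exon2KO. Of the 5 with enough reads, 1 was at least 2-fold lower and 1 higher. Cd79a and Cd79b, the most-read of them, were at -0.36 and -0.46, whereas Ms4a1, which encodes CD20, had 47 and 10 reads. Blk, which encodes a kinase of B cells, stood on the other side, with 44 and 160 reads, at 1.79 (1.35 to 2.35). Of the 5 tested markers, 4 lay below 0, as Btla did, and 1 above, and the part of B cells in the Btla ratio was not tested. Plasma cell markers, with Igkc and Igha as the most-read, summed to 63039 and 53966 CPM, with 1 of 7 at least 2-fold higher and 0 lower.

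Pdcd1, Icos and Btla are also known from follicular helper T cells, whose 6 markers summed to 62.5 CPM in WT and 38.3 in Exon2KO. Of the 4 with enough reads, 1 was at least 2-fold higher and 1 lower. Cxcr5 had 230 and 48 reads, at -2.24 (-2.77 to -1.83), Bcl6 had 707 and 495, and Ascl2 had 0 and 1. The other 2 tested markers lay above 0. Il21 had 2 and 13 reads, at 1.89 (0.53 to 5.86), and Il4 had 36 and 53, at 0.51 (-0.11 to 1.18). Per gene length, Pdcd1 was at 567 FPKM in WT and 82.1 in Exon2KO, beside 13.3 and 8.57 for the 6 markers summed. Levels of different genes give no share of cells. The part of follicular cells in the Pdcd1 ratio was not tested.

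Havcr2 is also a gene of myeloid and mast cells. The 13 myeloid and dendritic cell markers summed to 57.7 CPM in WT and 66.5 in Exon2KO, with 0 of the 9 with enough reads at least 2-fold higher and 1 lower. The most-read were Lyz2 (317 and 405 reads) and Cd68 (168 and 243), while Itgax had 0 reads in both libraries and Clec9a had 3 and 0. Csf1r, the 1 past 2-fold, had 14 and 6 reads, at -1.02 (-2.92 to 0.22). Of the 9 tested markers, 4 lay above 0 and 5 below. Of 8 mast cell markers, Mcpt1, Mcpt2, Mcpt4, Tpsb2 and Fcer1a were at 0 in both libraries, Cpa3 had 1 and 0 reads, and the sum of 27.4 and 16.7 CPM came from Hdc and Kit, of which Kit was at least 2-fold lower. Per gene length, Havcr2 was at 31.4 FPKM in WT and 46.7 in Exon2KO, beside a myeloid list sum of 36.2 and 43.4. Here too, levels of different genes give no share of cells. The part of myeloid cells in the Havcr2 ratio was not tested.

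Markers of gamma-delta T cells and epithelium also moved between the libraries. The 7 gamma-delta markers summed to 11.2 CPM in WT and 74.3 in Exon2KO, with 5 at least 2-fold higher and 1 lower. Tcrg-C1 had 123 and 1034 reads and Cd163l1 4 and 56, while Trdc had 14 and 13. The 9 epithelial markers summed to 92.5 and 341 CPM, with 6 at least 2-fold higher and 0 lower. The most-read over both libraries were Krt8 (160 and 1604 reads) and Lgals4 (217 and 1385). Epcam, the most-read in WT, was on the other side of 0, with 782 and 609 reads, at -0.39 (-0.54 to -0.23), as was Muc2, with 41 and 21, at -0.93 (-1.82 to -0.20). Their part in the receptor ratios was not tested.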

How the data were processed

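RNA sequencing read counts per gene, deposited by the authors for 1 WT and 1 Exon2KO library of colonic Treg cells, were used as the main values. HISAT2 2.0.5, StringTie 1.3.3b, featureCounts 1.5.0-p3 and DESeq2 1.16.1 and the build mm10 are named in the submitters' processing notes without a role. The strand setting and the annotation release are not given in the sources used here. The authors also deposited FPKM values (counts divided by gene length and library size), used to order genes per length, and a log2 fold change, p-value and adjusted p-value per gene, quoted as theirs. A further 2 columns of scaled counts, 1 for each library, were not used.

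Library sizes of 16281133 and 15412425 reads were scaled by TMM (edgeR 4.0.16, R 4.3.3; factors 0.964 for WT and 1.04 for Exon2KO). CPM are reads per 1000000 of the scaled size. Log2 ratios put Exon2KO over WT after adding a prior count of 2, in genes whose 2 libraries hold at least 10 reads together, and at least 2-fold replaced a test, since 1 library a group has no measurable spread. Each ratio has a 95% Clopper-Pearson interval, taken from a gene's share of reads in Exon2KO without the prior count, with Wilson intervals for shares of reads. Intervals of ratios of genes come from the standard error of the log odds ratio. The limit of a 0 count is 3 reads. The calculation was tested on simulated data. Python 3.11.15, numpy 2.4.6, pandas 2.3.3 and scipy 1.17.1 were used.

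The receptors and all lists were chosen with earlier results of these data known. Named list genes are those past 2-fold with at least 100 reads in 1 library (up to the 3 highest and the 3 lowest) and the most-read gene. Marker genes are the 2 most-read and those at 0. Cd86, Cd274, Pvr, Tnfrsf14, Ptpn6, Ptpn11, Lrba, Adam10, Adam17, Prdm1, Foxp3, Cd8a, Cd8b1, Il21, Il4, Csf1r, Ms4a1, Blk, Epcam, Muc2 and Trdc were added after their values were seen. One marker gene of the fixed lists is not reported here and was left out of its list's sums and counts. Scalings, filters, prior counts, fold thresholds and assumed spreads were varied.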

Additional observations from a re-analysis of the deposited data

How the results depend on the processing

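With total counts, DESeq2 size factors, upper quartile factors, scaling by the CD3 genes Cd3d, Cd3e, Cd3g and Cd247, no filter, at least 50 reads, or prior counts of 0.5 and 5, the same 3 receptors (Pdcd1, Cd160 and Btla) lay at least 2-fold lower and 0 at least 2-fold higher. At least 1.5-fold gave 2 receptors higher, Ctla4 and Lag3. At least 4-fold, and an interval wholly past 2-fold, left Pdcd1 and Cd160 lower. Assuming a biological coefficient of variation (BCV, the spread between samples) of 0.2 in edgeR's exact test also left these 2, and a BCV of 0.4 left 1, Cd160 (adjusted p = 0.0372), with Pdcd1 at an adjusted p of 0.108, as the larger spread implies. Of 70 recomputed receptor ratios, 13 moved past their counting interval and 0 changed sign. Total counts raised the median of all tested genes by 0.10 and the CD3 scaling by 0.09.

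Over all tested genes, the 1628 higher and 1413 lower became 2643 and 2844 with no filter, 649 and 685 with at least 50 reads, 2922 and 2647 at 1.5-fold, and 499 and 408 at 4-fold. They became 598 and 576 with the interval past 2-fold, 579 and 536 with a BCV of 0.2, and 86 and 78 with 0.4, as the numbers tested and the thresholds imply.

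As shares of the receptors' summed FPKM in place of reads, WT values were 50.6% for Ctla4, 17.8% for Icos, 2.4% for Cd28, 13.3% for Pdcd1, 0.0718% for Lag3, 14.6% for Tigit, 0.735% for Havcr2, 0.203% for Btla, 0.0652% for Cd160, 0.28% for Cd226. Exon2KO values were 63.9% for Ctla4, 18.4% for Icos, 1.47% for Cd28, 1.47% for Pdcd1, 0.0955% for Lag3, 13.5% for Tigit, 0.835% for Havcr2, 0.0683% for Btla, 0.00383% for Cd160, 0.222% for Cd226. Gene length enters these shares by construction. With at least 50 reads, the ligands at least 2-fold higher and lower went from 3 each to 2 each, and the transcription factors and cytokines higher from 3 to 2. Of the list medians, only that of trafficking and shedding changed sign, from -0.05 to 0.0545 (total counts) and 0.0399 (CD3 scaling).

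No paired analysis was possible because either genotype comes as a single library. Depth limits Cd160, with 9 reads in Exon2KO, and Lag3, with 102 in WT.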

Other observations

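Loci next to or inside the receptor genes were read out as well, within 5 kb, and were chosen without regard to their ratios. A locus outside Ensembl on the same strand, 3820 bases past the end of Ctla4 (chromosome 1, 60919653 to 60931896), held 403 reads of WT against 768 of Exon2KO, a log2 ratio of 0.90 (0.73 to 1.08). The pseudogene Rpl18-ps1, which lies within the Ctla4 gene on its strand, had 65 and 193 reads, at 1.52 (1.13 to 1.97). Within Icos, Gm37039 had 191 and 328 reads, at 0.75 (0.49 to 1.02). These 3 loci stood on the same side as the receptor gene they adjoin, and reads in shared sequence are uncertain. Gm11579, 3305 bases past Cd28 on the other strand, had 100 and 93 reads, at -0.13 (-0.55 to 0.29).

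Ptms, the neighbour of Lag3 at 1975 bases, which encodes parathymosin, had 257 and 502 reads, at 0.93 (0.72 to 1.16), beside 0.77 for Lag3. Gm12168, near Havcr2, stood on the other side from Havcr2 (0.56), with 17 and 6 reads, at -1.27 (-3.16 to -0.12). Pdzk1, which overlaps the start of Cd160 on the other strand, had 0 reads in both libraries. No other locus of the table lay within 5 kb of Pdcd1, Tigit, Btla or Cd226.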
